A study of Rattus norvegicus with 6 samples.

Results

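The let-7 family on this rat array comprised the 5p arms rno-let-7a-5p, rno-let-7b-5p, rno-let-7c-5p, rno-let-7d-5p, rno-let-7e-5p, rno-let-7f-5p and rno-let-7i-5p, together with the closely related rno-miR-98-5p, written below without the species prefix. These 8 microRNAs (miRNAs), chosen by name among the 719 rat miRNAs of the array, were measured by 16 of its 1730 probes. The cells were rat primary skeletal muscle cells (RSkMC), isolated from the limb muscle of newborn animals, bought frozen at the second passage and carried through 11 days of differentiation in medium with 2% horse serum. Cultures called control received no agent (n = 3 samples) and treated cultures were given 1 ng/ml of interleukin-8 (IL-8), a chemokine of neutrophil recruitment (n = 3 samples), and 1 single-colour Agilent array was hybridised per sample with 100 ng of total RNA. The growth protocol in the labels mentions IL-8 for every sample, so the groups follow the sample titles and agent labels.

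let-7 miRNAs are among the most conserved animal miRNAs. Their precursors are held back in embryonic cells by the RNA-binding protein LIN28, and the mature forms accumulate as cells leave the cell cycle and differentiate. Mature let-7 pairs through its seed, the stretch near the 5′ end that selects targets, with messenger RNAs of growth regulators such as Hmga2, the Ras genes and the Igf2 messenger RNA-binding proteins. In skeletal muscle, let-7 is known as an abundant family whose level is tied to the differentiated state and to ageing.

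The mature sequences show what the members share and how little separates them. All 8 were matched by name in the RefSeq table (build GRCr8) and are 22 bases long, and all carry 1 seed. Each is written 5′ to 3′ with the seed, bases 2 to 8, in capitals.
rno-let-7a-5p: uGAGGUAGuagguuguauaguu
rno-let-7b-5p: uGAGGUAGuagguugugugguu
rno-let-7c-5p: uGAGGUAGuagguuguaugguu
rno-let-7d-5p: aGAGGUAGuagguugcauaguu
rno-let-7e-5p: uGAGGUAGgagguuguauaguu
rno-let-7f-5p: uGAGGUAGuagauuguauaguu
rno-let-7i-5p: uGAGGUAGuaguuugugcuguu
rno-miR-98-5p: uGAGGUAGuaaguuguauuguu

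Counted from the 5′ end, with the base of let-7a-5p written first, let-7c-5p differs from let-7a-5p by A19G, let-7e-5p by U9G and let-7f-5p by G12A. let-7b-5p differs by A17G and A19G, let-7d-5p by U1A and U16C, and miR-98-5p by G11A and A19U. let-7i-5p is the most distant of the family from let-7a-5p, with G12U, A17G, U18C and A19U. Of the 28 pairs of members 4 lie 1 base apart, and the most distant pair differs at 6 positions. RefSeq lists 9 rat miRNAs with this seed, and the ninth, let-7g-5p, is not analysed here, since no probe in the files carries its name.

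Each member was read by 2 probes of different length, both complementary to its 3′ end, so the shorter lies within the longer. All 16 probes, 18 to 22 bases long, were exact complements of their own RefSeq sequence. They are shown because a reading of 1 member can include RNA of another: 12 of the 16 have a single mismatch to at least 1 other member. The longer probe of each member is printed 5′ to 3′, with the bases in capitals that would not pair with let-7a-5p.
probe of let-7a-5p: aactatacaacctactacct
probe of let-7b-5p: aacCaCacaacctactacc
probe of let-7c-5p: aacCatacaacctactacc
probe of let-7d-5p: aactatGcaacctactacc
probe of let-7e-5p: aactatacaacctCctacc
probe of let-7f-5p: aactatacaaTctactacctc
probe of let-7i-5p: aacAGCacaaActactacctc
probe of miR-98-5p: aacAatacaacTtactacctca

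The let-7a-5p probes lie 1 mismatch from 4 other members, let-7c-5p, let-7d-5p, let-7e-5p and let-7f-5p. Those of miR-98-5p lie 2 mismatches from the nearest members, let-7a-5p and let-7c-5p, and those of let-7i-5p lie 3 from let-7b-5p, so these members had the probes least like any other member's. How far the probes cross-read was not tested, and the values of let-7a-5p, let-7b-5p, let-7c-5p, let-7d-5p, let-7e-5p and let-7f-5p are uncertain as separate measurements. let-7g-5p itself has 2 mismatches to the nearest of these probes, those of let-7a-5p, let-7f-5p and let-7i-5p.

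In rn4, the build named in the array files, the longer probes map to known let-7 loci. let-7a-5p has copies at chr8:44525787-44525806 and chr17:22119781-22119800. let-7f-5p has copies at chr17:22120143-22120163 and chrX:41376951-41376971, and let-7d-5p lies beside the first of these at chr17:22121911-22121928. miR-98-5p neighbours the X-linked let-7f copy at chrX:41377562-41377582. let-7c-5p maps to chr7:123700806-123700824 and chr11:16398282-16398300, let-7b-5p to chr7:123701215-123701232, let-7i-5p to chr7:62755367-62755386 and let-7e-5p to chr1:56487152-56487169. By the RefSeq gene table of GRCr8, used for names alone, miR-98 and its let-7f neighbour lie within Huwe1, a ubiquitin ligase gene, and let-7e lies within Spaca6. The let-7a, let-7f and let-7d genes of chromosome 17 share 1 long non-coding RNA gene. Their place in exons or introns was not analysed here. A member with 2 genes is 1 mature sequence, so the array cannot tell its gene copies apart.

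The arrays read 154 to 164 miRNAs well above background in control samples and 168 to 180 in IL-8 samples, and 167 miRNAs entered the test. Before scaling, the 75th percentile of signal, taken over probes detected on every array, was 440.1 to 496.8 in control and 539.7 to 568.9 with IL-8. Control and IL-8 arrays lay on different slides with different scan times, so throughout, the slide and the treatment cannot be told apart. Separate cultures within a group are not named in the labels. P-values therefore measure only the spread between these samples, possibly a technical one, and precision is limited by the small number of arrays. Against the label of the cells, 0 of 14 arms of striated muscle miRNAs, among them those of miR-206, miR-1 and miR-133a, were well above background on any array. The highest signal of their 31 probes was 9.23, whereas 6 of 6 fibroblast and smooth muscle miRNAs such as miR-143-3p and miR-21-5p were detected on all arrays. None of 7 blood and serum miRNAs and 1 of 3 neural miRNAs, miR-128-3p, were well above background, and none of the tested markers passed the limma test (adjusted p under 0.05). Detection of a listed miRNA does not by itself identify a cell type, and the part of cell composition in the let-7 values was not tested. In RNA from whole cultures, fewer cells of a type and less RNA per cell cannot be told apart.

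All 8 members were detected in every sample. Each probe had 10 spots per array, and all 960 spot readings of the 16 probes were well above background, with 0 saturated and 13 set aside as outliers. Probe signals, in units of scanner intensity, ran from 58.9 for the shorter miR-98-5p probe on control replicate 1 to 3999 for the longer let-7a-5p probe on IL-8 replicate 1. The lowest signal called well above background on any array was 12.3 to 17.1, so even miR-98-5p, the dimmest member, lay clear of it. Spots of a probe within an array had a median coefficient of variation of 6.57%, with a range from 1.72% to 11.5%. Brightness differs between probes, so the levels below order the groups of 1 miRNA and say nothing about which member is more abundant.

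No difference between IL-8 and control was called for any 5p arm of the family. None of the 8 members passed the limma test with Benjamini-Hochberg adjustment over 167 miRNAs, of which 5.99% were called. None had an unadjusted p under 0.05 by the same test either, against 24.6% of all tested miRNAs. The groups overlapped for all 8, while 29.9% of all tested miRNAs had groups that did not overlap. The log2 changes, IL-8 minus control, ran from -0.088 to 0.044, and the 95% confidence intervals of all 8 together spanned folds of 0.849 to 1.14. A fold change relative to the other miRNAs outside these bounds lies beyond the interval of every member.

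let-7a-5p, the form usually taken as the reference of the family, had log2 levels, relative to the 75th percentile of its array, of 2.31, 2.34 and 2.43 on control replicates 1, 2 and 3 and of 2.38, 2.25 and 2.37 on IL-8 replicates 1, 2 and 3. IL-8 replicates 1 and 3 lay between the lowest and the highest control array, so the groups overlap. The means were 2.36 ± 0.063 (SD, n = 3) and 2.33 ± 0.071 (SD, n = 3), a fold of 0.982 (95% CI 0.890 to 1.08, limma adjusted p = 0.870).

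let-7c-5p, 1 base away from let-7a-5p, stood at 1.75, 1.79 and 1.83 in control and at 1.80, 1.74 and 1.82 with IL-8. Its means of 1.79 ± 0.041 and 1.79 ± 0.042 (SD, n = 3 each) gave the smallest change of the family, a fold of 1.00 (95% CI 0.920 to 1.09, limma adjusted p = 0.997). The control and IL-8 arrays of let-7c-5p cover nearly the same range.

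let-7f-5p, encoded beside let-7a on chromosome 17 and beside miR-98 on the X chromosome, stood at 1.98, 2.06 and 2.14 in control and at 2.12, 1.99 and 2.09 with IL-8. Its means were 2.06 ± 0.084 and 2.07 ± 0.065 (SD, n = 3 each), a fold of 1.01 (95% CI 0.907 to 1.12, limma adjusted p = 0.963). All 3 IL-8 arrays lie inside the control range.

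let-7e-5p, transcribed with miR-99b and miR-125a, stood at 0.069, 0.093 and 0.20 in control and at 0.18, 0.073 and 0.18 with IL-8. Its means of 0.12 ± 0.067 and 0.15 ± 0.063 (SD, n = 3 each) gave a fold of 1.02 (95% CI 0.924 to 1.12, limma adjusted p = 0.870). Here too the IL-8 arrays fall within the control range.

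let-7b-5p, which lies beside a let-7c gene on chromosome 7, had the highest change of the 8. It stood at 0.96, 0.97 and 1.09 in control and at 1.06, 0.97 and 1.11 with IL-8. The means of 1.01 ± 0.073 and 1.05 ± 0.070 (SD, n = 3 each) gave a fold of 1.03 (95% CI 0.932 to 1.14, limma adjusted p = 0.779), and 2 of the 3 IL-8 arrays lay within the control range.

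let-7d-5p, the member whose first base is A, stood at 0.99, 1.01 and 1.14 in control and at 0.99, 0.93 and 1.06 with IL-8. Its means were 1.05 ± 0.080 and 0.99 ± 0.067 (SD, n = 3 each), a fold of 0.964 (95% CI 0.869 to 1.07, limma adjusted p = 0.690). IL-8 replicate 2 was the lowest array and control replicate 3 the highest.

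let-7i-5p, a single-gene member, stood at 0.70, 0.74 and 0.84 in control and at 0.69, 0.64 and 0.72 with IL-8. Its means of 0.76 ± 0.069 and 0.68 ± 0.038 (SD, n = 3 each) gave a fold of 0.948 (95% CI 0.866 to 1.04, limma adjusted p = 0.488). IL-8 replicate 3 lay above control replicate 1, which is the whole overlap between its groups.

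miR-98-5p, named apart from let-7 but with the same seed, had the lowest change of the 8. It stood at -2.70, -2.69 and -2.55 in control and at -2.70, -2.81 and -2.69 with IL-8. The means of -2.65 ± 0.083 and -2.73 ± 0.063 (SD, n = 3 each) gave a fold of 0.941 (95% CI 0.849 to 1.04, limma adjusted p = 0.488). Control replicates 2 and 3 stood above all IL-8 arrays, and control replicate 1 lay below IL-8 replicate 3 alone.

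**Figure D1:**
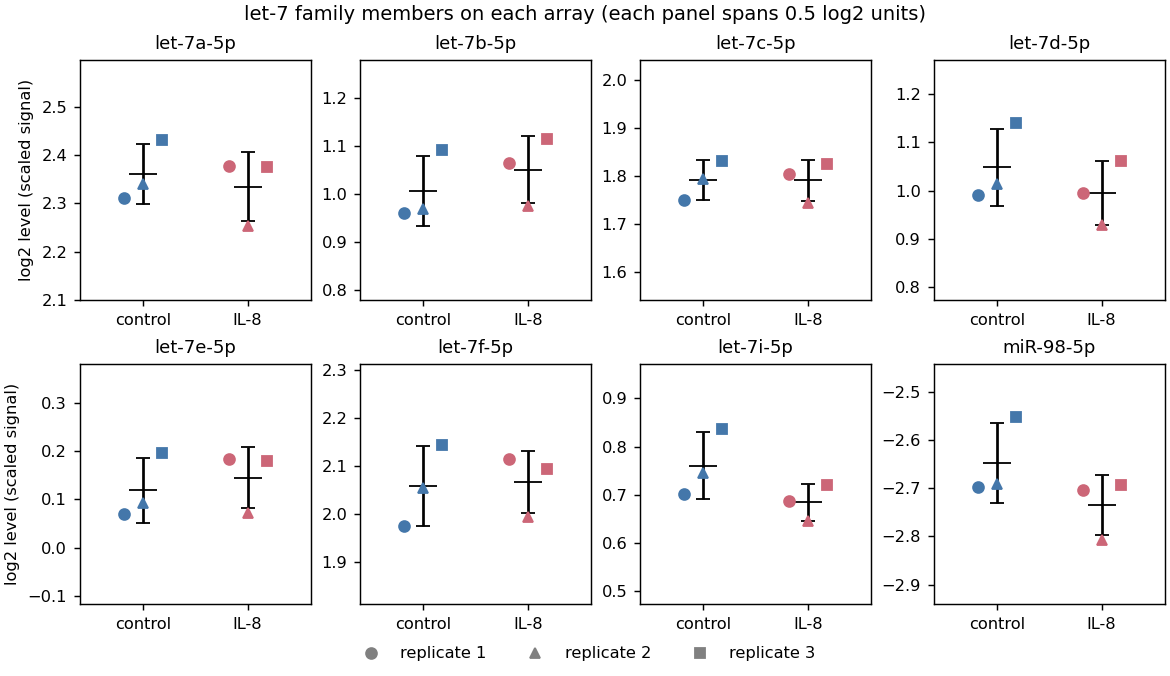
Log2 level of each let-7 family member, relative to the array's 75th percentile, on the 3 control arrays (blue) and the 3 IL-8 arrays (red), with the replicate given by the marker and the mean ± SD in black; every panel spans the same height. Control replicate 3 is the highest control array in all 8 panels, IL-8 replicate 2 the lowest IL-8 array, and the groups overlap in each panel.

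Control replicate 3 was the highest control array for all 8 members, and IL-8 replicate 2 the lowest IL-8 array for all 8. Over both groups, the highest array was control replicate 3 for 7 members and IL-8 replicate 3 for let-7b-5p, and the lowest was IL-8 replicate 2 for 5 members and control replicate 1 for let-7b-5p, let-7e-5p and let-7f-5p. The mean of the 8 log2 levels was 0.76, 0.79 and 0.89 on control replicates 1, 2 and 3 and 0.82, 0.73 and 0.83 on IL-8 replicates 1, 2 and 3. Over the 6 arrays, Pearson's r between 2 members ran from 0.449 to 0.962 with a median of 0.854, against a median of 0.133 for all 13861 pairs of tested miRNAs. This is a description with no test, and the members share arrays, scaling and much of their probe sequence. The member most like the mean of the other 7 was let-7a-5p (r = 0.975 over 6 arrays), and the least like it was let-7b-5p (r = 0.776 over 6 arrays).

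Among the other 159 tested miRNAs, those with a profile over the 6 arrays most like the family mean were miR-598-3p (r = 0.942), miR-352 (r = 0.802), miR-219a-5p (r = 0.793), miR-199a-3p (r = 0.789) and miR-322-5p (r = 0.788). Spearman's rho was 0.943 for the first of these and 0.6 to 0.886 for the other 4. Their log2 changes with IL-8 were -0.0018, 0.0094, -0.018, -0.023 and -0.11, and none passed the limma test. The 5 were picked for their likeness, so the coefficients are descriptions. miR-598-3p and miR-219a-5p were dim, with mean log2 levels of -4.49 and -4.51 in control, not far above the floor of -5.03.

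Each probe was also fitted by itself. The shorter probe of a member lies within the longer and both enter its value, so they give no independent support. Fitted probe by probe over 300 probes, of which 5.33% were called by limma at adjusted p under 0.05, 0 of the 16 let-7 family probes passed, the smallest adjusted p was 0.409, and 0 had an unadjusted p under 0.05. The changes of single probes ran from -0.10 for the 21-base probe of miR-98-5p to 0.058 for the 18-base probe of let-7b-5p. Both probes were lower with IL-8 for let-7a-5p, let-7d-5p, let-7i-5p and miR-98-5p, and both were higher for let-7b-5p and let-7e-5p. Those of let-7c-5p and let-7f-5p disagreed in sign, at 0.028 and -0.029 for let-7c-5p and at 0.021 and -0.0037 for let-7f-5p, shorter probe first.

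**Figure D2:**
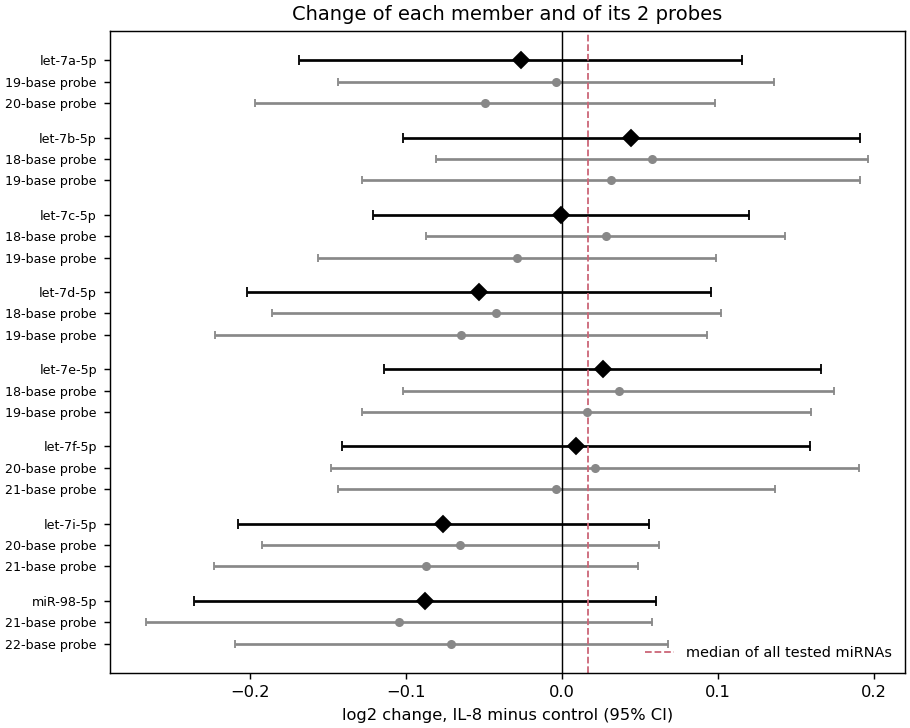
Log2 change, IL-8 minus control, with its 95% confidence interval from limma, for each member (black diamonds) and for each of its 2 probes (grey circles). All 24 intervals include 0, and all include the median of the 167 tested miRNAs (dashed line, 0.016).

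Set among all miRNAs, the family lay in the middle and lower part of the distribution, with 2 of 8 members above the median of all tested miRNAs. Its median log2 change was -0.014, with 3 members above 0 and 5 below, while the median of all 167 tested miRNAs was 0.016 and 56.3% of them lay above 0. All 8 members lay within 0.1 of 0 on the log2 scale, against 56.3% of all tested miRNAs. The limit of 0.1 was not planned beforehand and lies just beyond the largest member change, -0.088. The count is therefore a description, and members whose probes may read each other's RNA are not separate observations. The share of all tested miRNAs was not matched for signal. By mean signal from the top, let-7a-5p ranked 8, let-7e-5p, the second dimmest member, 30 and miR-98-5p 79 of the 167. In the order of all changes from the lowest, miR-98-5p took rank 33 and let-7b-5p rank 104, with the other members between. The median standard error of a change was 0.061 for the members and 0.066 for all tested miRNAs. The sign of the family median was not stable: it lay at 0.22 without scaling and at 0.19 with spike-in scaling, where the median of all tested miRNAs also moved to 0.24 and 0.21. It also lay above 0, at 0.019, without control replicate 3 and, again at 0.019, without IL-8 replicate 2, at 0.0088 with the shortest probe and at 0.0030 with the normexp background.

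**Figure D3:**
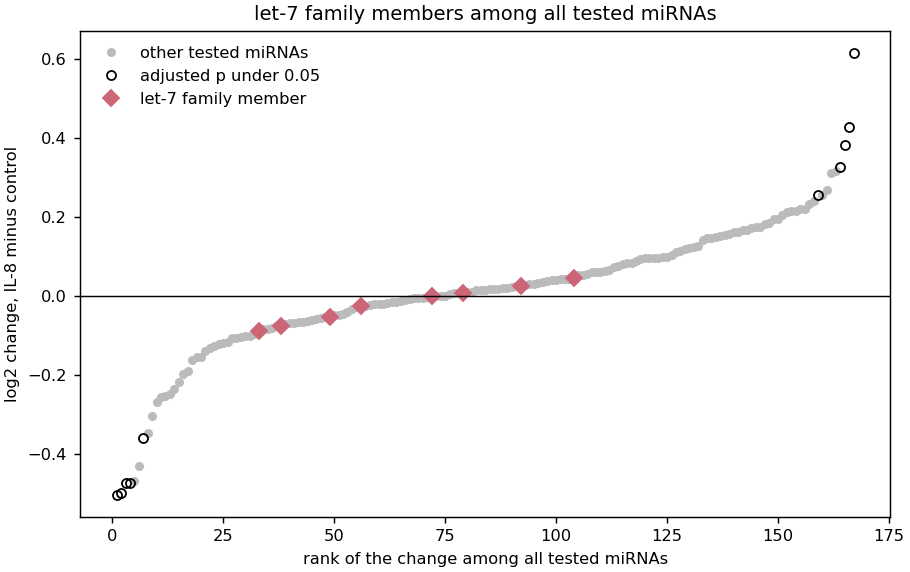
Log2 change, IL-8 minus control, of the 167 tested miRNAs in rank order, with the let-7 family members as diamonds and the 10 miRNAs at limma adjusted p under 0.05 as open circles. The 8 members sit between ranks 33 and 104, on the flat middle part of the curve.

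Differences between members within 1 array do not depend on the factor by which that array is scaled. Their SD over the 3 arrays of a group had a median of 0.022 in control and 0.029 with IL-8 over the 28 pairs, against 0.071 and 0.064 for the members' own levels. For 4 pairs in control and 2 with IL-8 it was as large as that of one of the members or larger. The within-array difference of let-7b-5p minus miR-98-5p was 3.66, 3.66 and 3.64 on control replicates 1, 2 and 3 and 3.77, 3.78 and 3.81 on IL-8 replicates 1, 2 and 3. These values do not overlap, and the change was 0.13 on the log2 scale. The means were 3.65 ± 0.0099 (SD, n = 3) and 3.78 ± 0.019 (SD, n = 3). The exact two-sided permutation p was 0.1, the smallest that 3 against 3 samples allow. Adjusted over the 28 pairs, this permutation p was 0.2. The pair is shown because its change was the largest of the 28. The difference of let-7e-5p minus miR-98-5p was 2.77, 2.78 and 2.75 in control and 2.89, 2.88 and 2.87 with IL-8, again without overlap. let-7b-5p minus let-7i-5p stood at 0.26, 0.22 and 0.25 in control and at 0.38, 0.33 and 0.39 with IL-8. Thus let-7i-5p and miR-98-5p were lower relative to let-7b-5p and let-7e-5p on every IL-8 array than on any control array.

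Over the 28 pairs of members, the groups did not overlap for 14, whereas 33% of all 13861 pairs of tested miRNAs showed no overlap. With 3 arrays a group the exact permutation test cannot go below 0.1. limma, fitted over the differences of all 13861 pairs and adjusted over them, called 8.65% of all pairs and 0 of the 28, with 0 at an unadjusted p under 0.05. Its smallest adjusted p among the 28 was 0.233, for let-7b-5p minus miR-98-5p, and the adjusted p of that pair ran from 0.060 to 0.418 over 5 other settings and with each array left out. limma's standard error for that difference was 0.062, since it draws on the spread of all pairs as well as on the small spread of this one. With the normexp background 6 of the 28 had an unadjusted limma p under 0.05. At an adjusted p under 0.05, limma with that background called 0 of the 28 and 6.93% of all pairs. The share of all pairs at an unadjusted p is not given for any setting, so the unadjusted counts have no background beside them. Since 28 pairs come from 8 members, they are far from independent. Of the 7 pairs that each member enters, the count without overlap was 5 for miR-98-5p, 4 for let-7a-5p, let-7b-5p, let-7e-5p and let-7i-5p, 3 for let-7f-5p and 2 for let-7c-5p and let-7d-5p. The log2 difference of let-7i-5p minus miR-98-5p moved by 0.012, with overlapping groups. Among the pairs without overlap that hold neither let-7i-5p nor miR-98-5p were let-7b-5p minus let-7d-5p, with a change of 0.098, and let-7a-5p minus let-7e-5p, with a change of -0.053. All 14 kept their direction with the longest probe, the shortest probe, the normexp background, the deposited value table and quantile normalization, and 11 to 14 of them still had groups without overlap. This is no independent support, since the 14 were picked on these same arrays. The deposited value table gives nearly the same values, and the reported value is the mean of the longest and the shortest probe. The part of probe likeness in these differences was not tested.

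**Figure D4:**
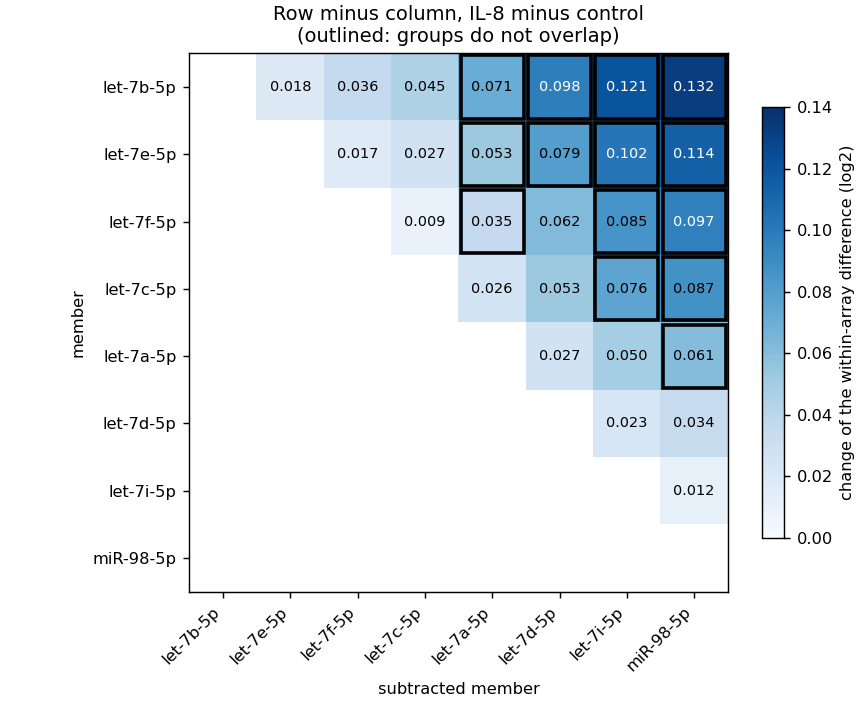
Change of the within-array difference between 2 members, IL-8 minus control, on the log2 scale; the column member is subtracted from the row member, and members are ordered by their own change. Outlined cells are the 14 of 28 pairs whose control and IL-8 arrays do not overlap, with the largest value, 0.132, for let-7b-5p minus miR-98-5p.

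The opposite arms of the same precursors were not detected. The array carries 32 probes under 9 names for the 3p arms of let-7 and miR-98, the strands usually discarded during processing, and 0 of the 9 were well above background on any array. The highest signal belonged to let-7d-3p at 14.2, followed by let-7a-1-3p at 10.8 and let-7c-1-3p, while the remaining 6 did not exceed 2.31. The files list the let-7a-1-3p probes also for let-7c-2-3p and the let-7e-3p probes also for let-7a-2-3p, so these cannot be told apart. No change of a 3p arm with IL-8 could be measured.

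Probes for the opposite strand of let-7 genes gave no signal above background either. The miR-3596 miRNAs are annotated on the other strand of 4 let-7 genes, and their RefSeq sequences are exact reverse complements of stretches of let-7a-5p, let-7d-5p, let-7e-5p and let-7f-5p, as shown here for the first and the last.
miR-3596a: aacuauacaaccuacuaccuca
miR-3596d: cuauacaaucuacuaccuca
Their probes therefore carry let-7 sequence itself, and 0 of these 10 probes were well above background on any array. Their signals ran from -7.36 to 0.452. This check was chosen after the values had been seen.

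Of the miRNAs encoded beside let-7 genes or grouped with them, miR-99a-5p, miR-99b-5p, miR-100-5p, miR-125a-5p and miR-125b-5p, all 5 were detected on all arrays and 0 passed the limma test in either direction. Their median log2 change was -0.047, with 2 above 0 and 3 below, beside 0.016 for all tested miRNAs. miR-99b-5p, processed from the same cluster as let-7e-5p, had levels of -0.99 ± 0.014 on control arrays and -1.09 ± 0.045 on IL-8 arrays (SD, n = 3 each), a log2 change of -0.10 ± 0.049 (SE). miR-125a-5p, the remaining product of that cluster, had a log2 change of 0.00053 ± 0.047 (SE), and let-7e-5p one of 0.026 ± 0.060 (SE). The 95% intervals of all 3 include 0. Of the 5 miRNAs, miR-99b-5p alone had groups that did not overlap, beside 29.9% of all tested miRNAs. The change was -0.047 ± 0.079 (SE) for miR-99a-5p, beside let-7c on chromosome 11. For miR-100-5p, beside let-7a on chromosome 8, it was 0.038 ± 0.057 (SE).

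No member was called under any processing tried. Over all tested miRNAs, the count called ran from 0, with the percentile over all probes, to 51, without scaling. Where few miRNAs were called, the absence of a member call says little. Under 23 alternative settings, which gave 184 values for the 8 members, none passed the limma test, and adjusted p ran from 0.057, for let-7b-5p without scaling, to 1. At an unadjusted p under 0.05, limma counted 4 members without scaling, beside 92 of all 167 tested miRNAs. It counted 1 member each with spike-in scaling, quantile normalization and the normexp background, beside 69, 40 and 62 of 167. Under the other 19 alternatives it counted 0 members, beside 9 to 59 of all tested miRNAs. Without scaling all 8 members were higher with IL-8, from 0.14 for miR-98-5p to 0.28 for let-7b-5p, and with spike-in scaling from 0.12 to 0.25. The direction of a member relative to 0 therefore rests on how arrays are scaled. Under the reported processing and all 23 alternatives let-7b-5p had the highest change of the 8 members, and the lowest belonged to miR-98-5p or let-7i-5p. For many of these settings that order was fixed in advance. Scaling by another factor per array, or leaving scaling out, moves all members alike. The filters, the floor, limma's trend and robust options and the replicate block left the members' changes as they were. The order under those settings gives no support. With the normexp background the median of all tested miRNAs lay at -0.070 and 7 of 8 members were above it, against 2 of 8 in the reported values.

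**Figure D5:**
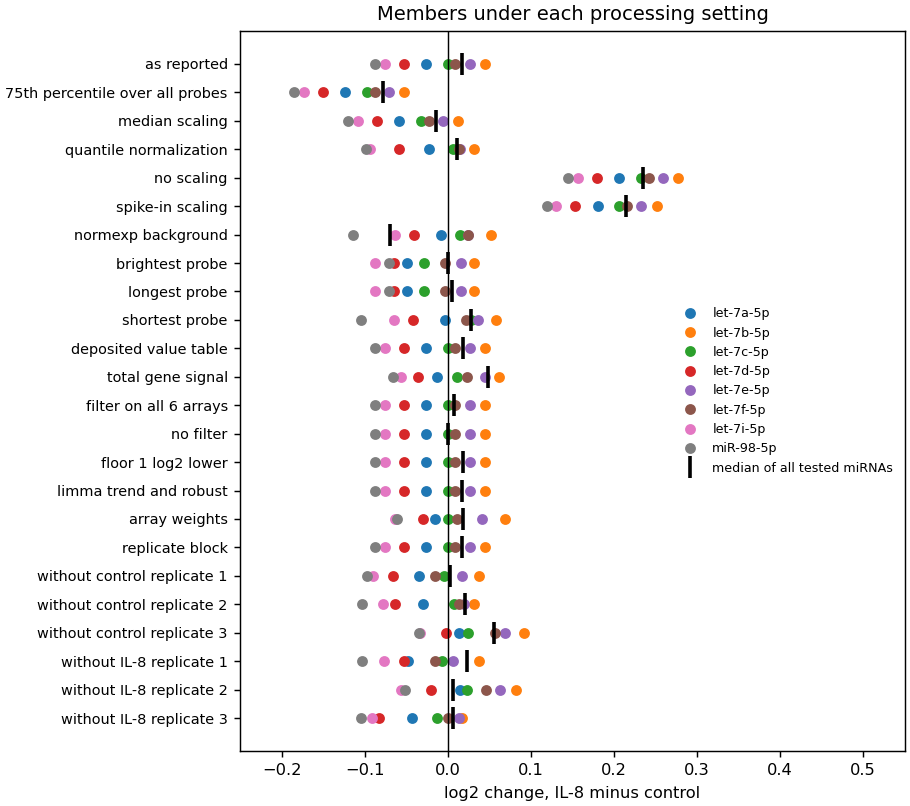
Log2 change, IL-8 minus control, of each member (coloured points) and the median of all tested miRNAs (black bars) under the reported processing and the 23 alternatives. Members and bar shift together to the right without scaling and with spike-in scaling and to the left with the percentile over all probes, and with the normexp background 7 members lie right of the bar; let-7b-5p is the rightmost member in each row and miR-98-5p or let-7i-5p the leftmost.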

How the data were processed

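Total RNA of 3 control and 3 IL-8 samples was labelled with Cy3 and hybridised to 1 array each. The deposited values are scanner intensities on a linear scale, extracted with Agilent Feature Extraction 10.10.1.1 per the submitters' processing notes, background-subtracted and spatially detrended per the file headers, and not normalized between arrays. Any error in these steps enters all values. The deposited value table equalled the software's total probe signal for all 15095 values of each array within a relative tolerance of 0.0001, so its scale is linear and uncentred; its column medians were -0.529, -1.35 and -1.17 for control and 0.307, -0.802 and -1.18 for IL-8.

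Spots of a probe were averaged without outlier spots. To scale an array, the 75th percentile of 264 probes, those well above background on all 6 arrays, served as divisor. Log2 values were then taken with a floor of -5.03. Well above background meant a positive software call for over 50% of a probe's spots. Testing required a probe passing on every array of at least 1 group, and the passing probes of a miRNA were averaged. A shift common to all miRNAs is lost in scaling, so every change is a relative one. Groups were compared with limma's lmFit and eBayes (version 3.58.1, under R 4.3.3), with Benjamini-Hochberg adjustment over 167 miRNAs and a threshold of 0.05. The fit was also run on simulated data with independent noise for each miRNA. Such data hold neither spread shared between miRNAs nor a slide effect, so the run says nothing about these. Within-array differences between members were tested by exact permutation of the sample labels, two-sided, and by limma over all pairs of miRNAs.

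The members and lists were chosen with earlier results of these data known. Named were all 8 members, the detected members of 3 related lists, and the 5 miRNAs most like the family mean. The differences between members and the opposite-strand probes were added after seeing the data. The limit of 0.1 on the log2 scale was not planned beforehand. Alternatives covered scaling, background, probe summary, filter, floor, limma settings, a replicate block and each array left out.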

Additional observations from a re-analysis of the deposited data

How the results depend on the processing

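Under all 23 alternatives 0 of the 8 members passed limma's threshold. The family's median log2 change, -0.014, became -0.11 with the percentile over all probes, 0.22 without scaling and 0.19 with spike-in scaling, where the median of all tested miRNAs was -0.079, 0.24 and 0.21. It was 0.0088 with the shortest probe and 0.0030 with the normexp background, and it ran from -0.031 to 0.019 with single arrays left out. Of 184 member values, 30 had the opposite sign, 0 of them past the threshold. Without scaling, let-7a-5p stood at 0.21, let-7c-5p at 0.23, let-7d-5p at 0.18, let-7i-5p at 0.16 and miR-98-5p at 0.14. With spike-in scaling these were 0.18, 0.21, 0.15, 0.13 and 0.12. With the percentile over all probes, let-7b-5p stood at -0.053, let-7e-5p at -0.071 and let-7f-5p at -0.088. With median scaling let-7e-5p stood at -0.0062 and let-7f-5p at -0.023, and with the brightest or the longest probe let-7f-5p stood at -0.0037. let-7c-5p stood at 0.0063 with quantile normalization, 0.014 with the normexp background, 0.028 with the shortest probe, 0.011 with total gene signal and 1.8e-05 with array weights. With single arrays left out, let-7a-5p ran from -0.048 to 0.014, let-7c-5p from -0.014 to 0.024 and let-7f-5p from -0.016 to 0.057. With the normexp background 7 of 8 members lay above the median of all tested miRNAs, against 2 in the values reported. The cause of these shifts was not tested.

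Over all tested miRNAs, the count past limma's threshold was 10, with 5 higher and 5 lower. It was 0 with the percentile over all probes (limma, with 9 at an unadjusted p under 0.05), 1 without a filter, 17 with quantile normalization (8 higher), 24 with the normexp background (1 higher), 28 with array weights (17 higher), 31 with spike-in scaling (all higher) and 51 without scaling (50 higher). With single arrays left out it ran from 1, without IL-8 replicate 2 or IL-8 replicate 3, to 29, without control replicate 3. It was 5 without control replicate 2 and 3 without IL-8 replicate 1. A replicate block left 8 calls, 0 of them members, with the family median at -0.014. Same-numbered samples correlated at 0.288, 0.330 and 0.0857 in their deviations from the group means. Samples of different numbers correlated at -0.581 to 0.326. These few values cannot settle whether the replicate numbers pair the samples, and the main fit had no block.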
